A study of Mus musculus with 8 samples.

Results

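The genes described here encode the machinery of DNA replication and of mitosis. A list of 47 symbols was used, 28 of S phase and 19 of mitosis, and a probe set was a member if one of these was its only gene symbol in the platform annotation. Of the 47 genes, 43 were measured, by 73 of the 18443 probe sets. S phase held 25 genes with 48 probe sets, and mitosis 18 genes with 25 probe sets. Pola1, Pole, Cdc45 and Ccnb1 are not analysed here. The rule used gene names and no measured value.

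RNA came from enterocytes of the small intestine. IE-Cpr-null mice have no Cpr, the NADPH-cytochrome P450 reductase that hands electrons to microsomal P450 enzymes, in their gut epithelium, and were set against wild-type (WT) littermates. All were C57BL/6 males, 2.5 to 3.0 months of age. The strain is known from earlier work to delete Cpr with a Cre recombinase driven by the villin promoter, which the labels used here do not state. Each genotype had 8 mice, pooled by 2 onto 4 arrays, so errors measured the spread between pools. The targeted gene is not analysed here. Values are log2, and each probe set had been centred on the median of the 4 WT arrays. They are therefore differences from that median, the level of no gene is known, and the presence of enterocyte markers could not be checked by their level. The interquartile range over all probe sets was 0.12 to 0.20 for IE-Cpr-null pools and 0.061 to 0.10 for WT pools.

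In the small intestine, cell division takes place in the crypts, where stem cells and transit-amplifying cells renew the epithelium, while the enterocytes of the villus have left the cycle. S-phase genes are switched on by E2F transcription factors when the retinoblastoma proteins release them, and their products open origins, unwind and copy DNA and supply deoxynucleotides. Mitotic genes follow later under B-Myb and FoxM1 acting with the MuvB complex, which binds an element called CHR, often near CCAAT boxes bound by NF-Y. Their products condense chromosomes, build the spindle and trigger anaphase. In RNA from a cell isolate, fewer cycling cells and less RNA per cycling cell cannot be told apart.

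The promoters of both classes were searched for these elements. RefSeq promoter windows (GRCm38.p6, 250 bases before to 50 after the start) were found for 23 of the 25 measured S-phase genes (27 windows) and 15 of the 18 measured mitotic genes (15 windows). An E2F motif, searched on both strands as TTTGGCGC, TTTCCCGC or TTTCGCGC, was found in 33.3% of the S-phase windows and 6.67% of the mitotic windows, against 1.84% of all 32851 windows. A CHR motif, TTTGAA or TTCGAA, was found in 14.8% of the S-phase windows and 86.7% of the mitotic windows, against 19.2% of all windows. CCAAT was found in 55.6% of the S-phase windows and 86.7% of the mitotic windows, against 37.4% of all windows. All 13 mitotic windows with CHR also held CCAAT. A match is a stretch of letters and not a measured site.

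The windows of 5 genes are shown 5′ to 3′ on the gene's own strand, with E2F, CHR and CCAAT matches in capitals. They were chosen after the values were seen. Mcm6 (chr1:128359656-128359955, minus strand) and Pcna (chr2:132253131-132253430, minus strand) are the S-phase genes with a probe set whose arrays did not overlap between the genotypes, which for Mcm6 was 1 of its 2 probe sets. Mcm6 held 3 E2F matches, the first 2 of which overlap each other in 1 run of capitals, and 2 CCAAT matches. Pcna held 1 CCAAT match and 0 of the E2F or CHR letters.
Mcm6: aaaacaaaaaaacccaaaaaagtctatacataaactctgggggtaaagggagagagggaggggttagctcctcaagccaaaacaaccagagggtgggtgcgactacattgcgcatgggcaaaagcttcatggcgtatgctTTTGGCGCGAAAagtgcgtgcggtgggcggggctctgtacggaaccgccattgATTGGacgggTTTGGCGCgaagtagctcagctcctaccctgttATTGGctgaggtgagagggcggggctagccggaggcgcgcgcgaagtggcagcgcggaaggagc
Pcna: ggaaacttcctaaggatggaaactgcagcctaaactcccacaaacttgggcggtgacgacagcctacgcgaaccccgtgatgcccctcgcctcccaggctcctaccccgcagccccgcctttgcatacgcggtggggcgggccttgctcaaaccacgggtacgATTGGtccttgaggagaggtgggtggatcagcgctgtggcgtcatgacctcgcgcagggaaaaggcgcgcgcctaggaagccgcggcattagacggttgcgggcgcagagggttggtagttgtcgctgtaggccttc
Ccnb2 (chr9:70421505-70421804, minus strand), Top2a (chr11:99024140-99024439, minus strand) and Ube2c (chr2:164769679-164769978, plus strand) are mitotic genes that varied together from array to array. Ccnb2 held 2 CHR and 3 CCAAT matches, Top2a 4 CHR and 6 CCAAT matches, and Ube2c 1 CHR and 6 CCAAT matches. In Ube2c a CCAAT match on each strand overlaps the other. In these 5 windows no E2F, CHR or CCAAT match overlapped one of another kind.
Ccnb2: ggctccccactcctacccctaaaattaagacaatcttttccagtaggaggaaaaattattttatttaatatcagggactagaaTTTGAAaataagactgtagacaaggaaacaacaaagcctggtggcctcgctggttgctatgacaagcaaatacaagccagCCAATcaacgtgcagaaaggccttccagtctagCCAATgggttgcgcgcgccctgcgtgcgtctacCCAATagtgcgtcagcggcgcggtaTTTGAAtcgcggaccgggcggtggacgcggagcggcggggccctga
Top2a: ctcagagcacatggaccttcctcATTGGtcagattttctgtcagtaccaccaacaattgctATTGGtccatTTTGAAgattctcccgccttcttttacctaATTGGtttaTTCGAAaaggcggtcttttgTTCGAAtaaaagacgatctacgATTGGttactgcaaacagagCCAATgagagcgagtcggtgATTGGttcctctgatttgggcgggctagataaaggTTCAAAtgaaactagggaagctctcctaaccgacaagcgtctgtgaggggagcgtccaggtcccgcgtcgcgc
Ube2c: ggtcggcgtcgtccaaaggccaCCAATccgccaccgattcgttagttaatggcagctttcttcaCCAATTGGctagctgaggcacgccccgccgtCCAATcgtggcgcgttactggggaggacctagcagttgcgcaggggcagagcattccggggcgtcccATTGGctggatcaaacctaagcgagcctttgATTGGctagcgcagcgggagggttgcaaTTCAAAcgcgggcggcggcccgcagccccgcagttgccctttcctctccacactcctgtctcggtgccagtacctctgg

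Several pools stood apart from the rest of their genotype. IE-Cpr-null replicate 1 was high in stroma and muscle transcripts and IE-Cpr-null replicates 2 and 3 were high in hepatocyte transcripts, as the marker means further on show. Pancreatic acinar transcripts were low on WT replicate 3 as on 3 IE-Cpr-null pools. Results were therefore also computed without these pools.

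The comparison of the genotypes asked whether replication or mitotic genes differed in enterocytes without Cpr. In limma, adjusted over all 18443 probe sets, 0 of the 73 member probe sets passed a threshold of 0.05, where 0.0217% of all probe sets were called (0.0163% higher and 0.00542% lower). At an unadjusted p under 0.05, 3 member probe sets were lower and 0 higher, those of Pcna, Mcm6 and Rrm1. That is 4.11% of members lower, beside 4.47% of all probe sets (7.4% in either direction), so the share was near the background. S-phase differences, IE-Cpr-null minus WT, had a median of 0.025 with 29 probe sets higher and 19 lower. Mitotic differences had a median of 0.037 with 17 higher and 8 lower. Over all probe sets the median was 0.016, with 57.5% above 0. With quantile normalization the S-phase median was 0.0014.

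A p that misses the threshold does not show that the genotypes are alike, and the intervals differed widely in width. The 95% interval of Ttk, a kinase of the spindle checkpoint, ran from -0.059 to 0.10. That of Mki67, which encodes the proliferation antigen Ki-67, ran from -1.31 to 1.38. For Ccna2, the cyclin of late S phase and G2, it ran from -2.05 to 1.69 in probe set 1417910_at and from -0.63 to 1.02 in 1417911_at. The plot of all differences shows the wide intervals at genes that varied most between pools of 1 genotype.

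**Figure D1:**
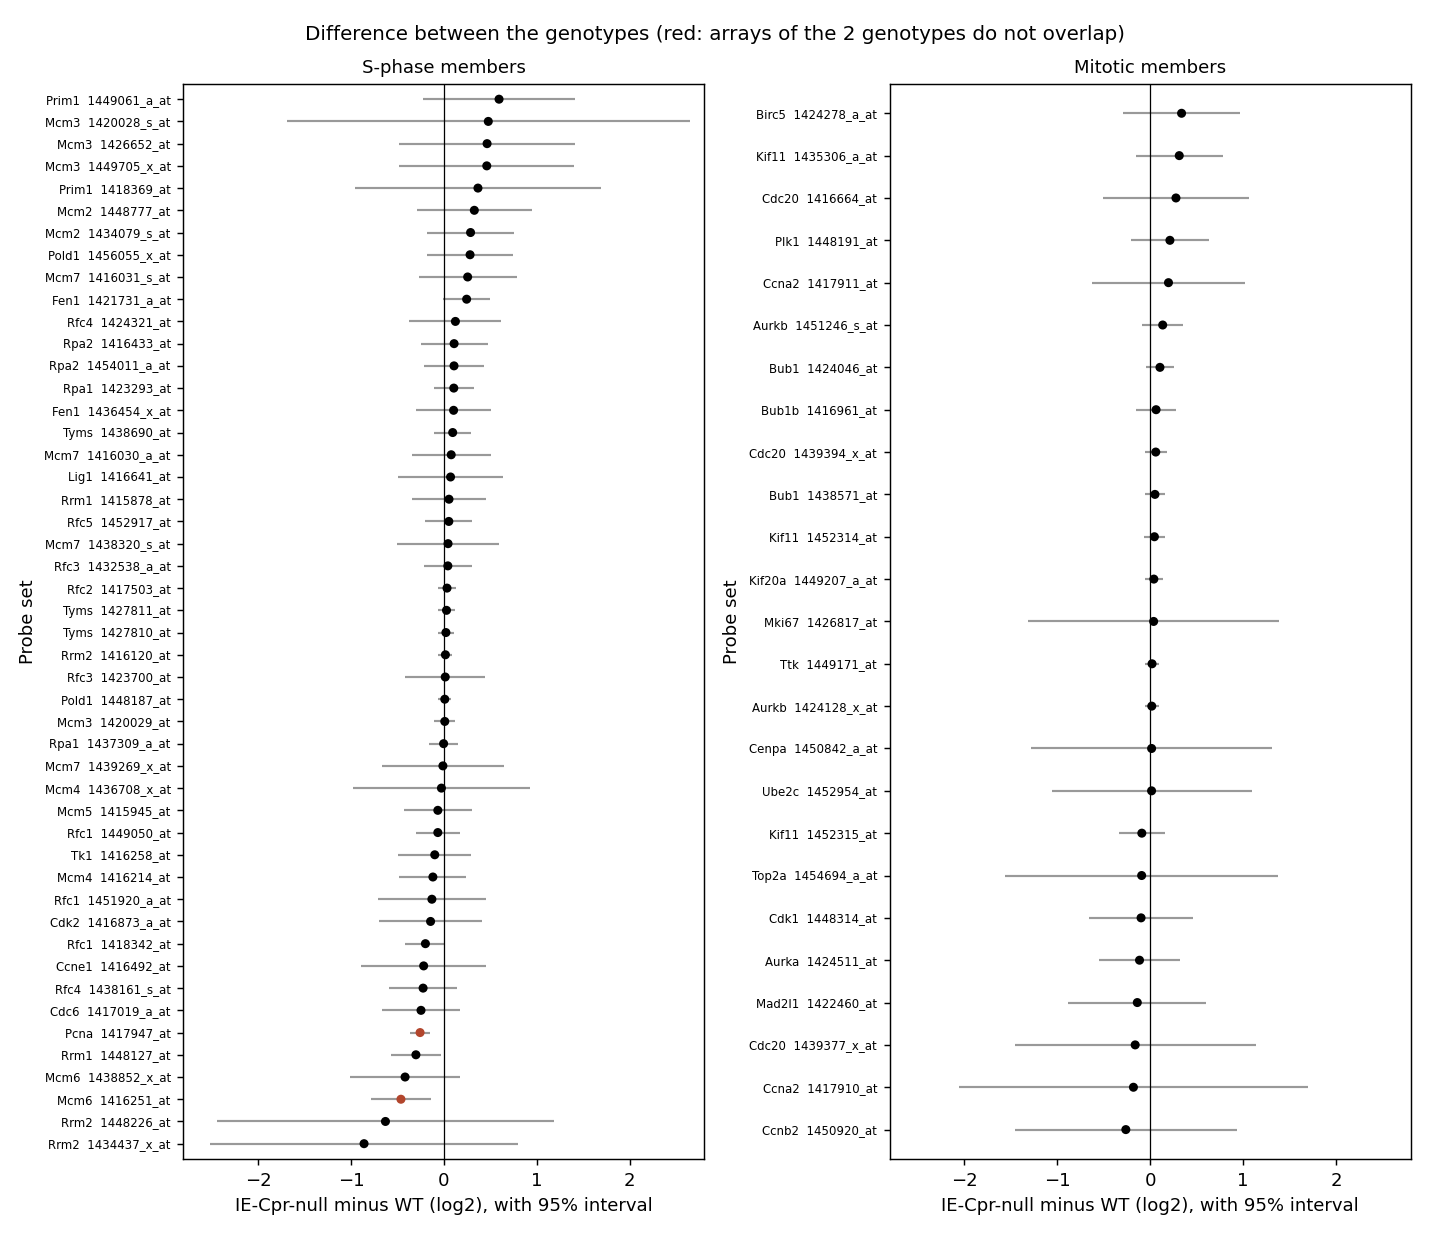
Difference between IE-Cpr-null and WT (log2, horizontal axis) for each of the 48 S-phase and 25 mitotic probe sets, with 95% intervals from limma as lines, n = 4 arrays per genotype. Red points mark the 2 probe sets, of Pcna and Mcm6, whose arrays did not overlap; 70 of the 73 intervals include 0.

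Pcna encodes the sliding clamp that holds DNA polymerases on the template, and it was the member with the smallest p. It read -0.24, -0.35, -0.17 and -0.31 on IE-Cpr-null replicates 1 to 4, against 0.027, -0.015, 0.015 and -0.065 on WT replicates 1 to 4. All 4 IE-Cpr-null arrays lay below all 4 WT arrays, and none of the 4 stood far from the others. The difference was -0.26 (SE 0.048, 1.19-fold lower, 95% interval -0.37 to -0.14, n = 4 arrays each), with an unadjusted limma p of 0.00086 and an adjusted p of 0.251. Non-overlap with IE-Cpr-null lower held for 2 member probe sets, 2.74%, beside 2.47% of all probe sets, and non-overlap with IE-Cpr-null higher for 0, beside 1.64% (4.11% of all in either direction). Of the clamp loader, which opens the ring, none of the 9 probe sets of Rfc1, Rfc2, Rfc3, Rfc4 and Rfc5 had arrays that did not overlap, and their differences ran from -0.22 to 0.12.

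Mcm6 is a subunit of the MCM2-7 ring, the helicase loaded at origins. Its first probe set (1416251_at) read -0.058, -0.78, -0.45 and -0.56 on IE-Cpr-null replicates 1 to 4, against -0.051, -0.015, 0.057 and 0.015 on WT replicates 1 to 4. IE-Cpr-null replicates 2, 3 and 4 lay clearly below WT, but replicate 1 at -0.058 lay just beneath the lowest WT array at -0.051. The difference was -0.46 (SE 0.139, limma adjusted p = 0.464). A second Mcm6 probe set (1438852_x_at) read 0.37, -0.76, -0.83 and -0.58 on IE-Cpr-null replicates 1 to 4, against 0.051, -0.19, 0.052 and -0.051 on WT replicates 1 to 4. Again replicates 2, 3 and 4 were low, while replicate 1 was the highest array of all, so the groups overlapped (difference -0.42, SE 0.255, adjusted p = 0.828). When limma weighted the arrays by their own spread, Pcna and Mcm6 1416251_at passed the threshold (adjusted p = 0.0198 and 0.0212). They were 2 of the 73 member probe sets, where 4.02% of all probe sets (741) passed. IE-Cpr-null replicate 4 weighed most in that fit.

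The probe sets of the other helicase subunits had differences of both signs. Mcm2 differed by 0.29 and 0.33 in its probe sets, Mcm4 by -0.12 and -0.026, Mcm5 by -0.065, and Mcm7 by -0.010 to 0.26 in 4 probe sets. For none of these did the arrays of the genotypes separate. Mcm2 1434079_s_at was 0.86 on IE-Cpr-null replicate 1 and 0.0017 to 0.028 on replicates 2 to 4. Without replicate 1 the Mcm2 differences were 0.075 (1434079_s_at) and 0.20 (1448777_at). Mcm3 was dominated by 1 pool: probe set 1420028_s_at read 3.61, -0.22, 0.31 and -0.23 on IE-Cpr-null replicates 1 to 4, against -0.20, 0.20, 1.80 and -0.24 on WT replicates 1 to 4. IE-Cpr-null replicate 1 was more than 3 log2 units above the other arrays of its genotype, and WT replicate 3 stood above the other WT arrays. Mcm3 probe sets 1426652_at and 1449705_x_at were 1.80 and 1.81 on IE-Cpr-null replicate 1 but no higher than 0.099 on replicates 2 to 4, while 1420029_at stayed between -0.10 and 0.065 on all 8. Cdc6, which helps to load the ring, differed by -0.25 (SE 0.18).

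Ribonucleotide reductase, which makes deoxynucleotides, has the large subunit Rrm1 and the small subunit Rrm2. Rrm1 probe set 1448127_at read -0.11, -0.55, -0.31 and -0.22 on IE-Cpr-null replicates 1 to 4, against 0.12, -0.15, -0.12 and 0.18 on WT replicates 1 to 4. IE-Cpr-null replicates 2, 3 and 4 lay below all WT arrays and replicate 1 did not (difference -0.30, SE 0.115, unadjusted p = 0.0325, adjusted p = 0.607). A second Rrm1 probe set (1415878_at) differed by 0.055 (SE 0.171), with 0.63 on IE-Cpr-null replicate 1 as its highest array.

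Rrm2 varied widely among pools. Probe set 1448226_at read 2.04, -1.52, -0.997 and -1.06 on IE-Cpr-null replicates 1 to 4, against -0.19, 0.042, 1.16 and -0.041 on WT replicates 1 to 4. Replicates 2, 3 and 4 of IE-Cpr-null were below every WT array, yet replicate 1 was above every WT array. Probe set 1434437_x_at repeated this, with 1.49, -1.92, -1.13 and -1.32 on IE-Cpr-null replicates 1 to 4, against -0.29, 0.055, 0.84 and -0.055 on WT replicates 1 to 4. Their differences of -0.63 (SE 0.779) and -0.86 (SE 0.709) lay within that spread (adjusted p = 0.86 for both). The remaining Rrm2 probe set (1416120_at) spanned 0.083 over all arrays. Tyms, the thymidylate synthase, differed by 0.022 to 0.095 in 3 probe sets, and Tk1, the thymidine kinase of S phase, by -0.098 (SE 0.168).

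**Figure D2:**
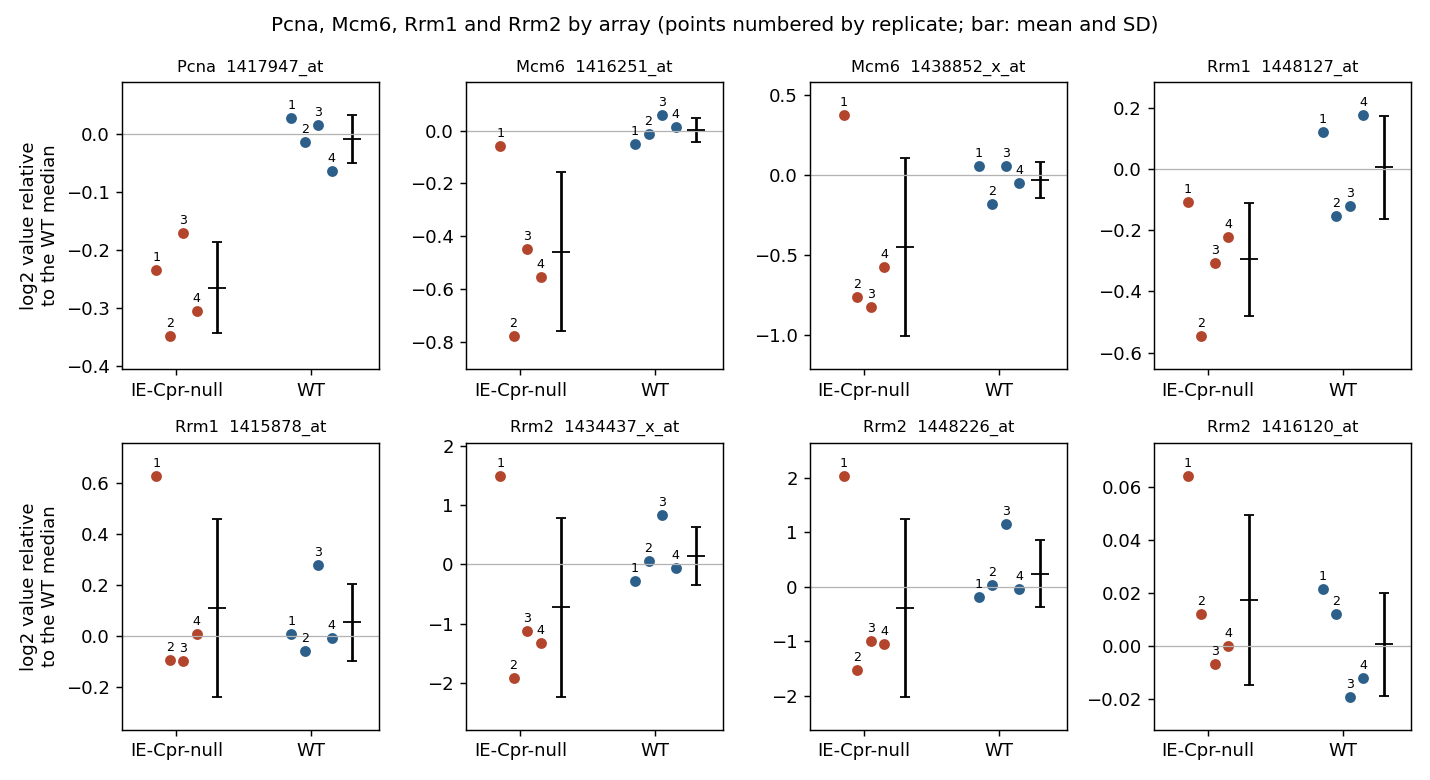
Log2 values relative to the WT median (vertical axis, own scale in each panel) of Pcna, Mcm6, Rrm1 and Rrm2 probe sets on each array, numbered by replicate, with the mean and SD of 4 arrays as a bar. Pcna separated the genotypes on all 4 arrays, whereas for Mcm6 and Rrm2 replicate 1 of IE-Cpr-null stood apart from replicates 2, 3 and 4.

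Among the enzymes at the fork, Prim1, the primase subunit that lays down RNA primers, had the largest positive difference of the S-phase class. Probe set 1449061_a_at read 1.71, 0.061, 0.54 and 0.050 on IE-Cpr-null replicates 1 to 4, against 0.076, 0.053, -0.053 and -0.088 on WT replicates 1 to 4. Replicate 1 carried most of its difference of 0.59 (SE 0.351, adjusted p = 0.815), which was 0.22 without it. The second Prim1 probe set (1418369_at) was 2.33 on replicate 1 and -0.13 to -0.064 on replicates 2 to 4. Pold1, the catalytic subunit of polymerase delta, differed by 0.010 and 0.28. The larger difference (1456055_x_at) came with 0.78 on IE-Cpr-null replicate 1 and -0.024 to -0.0031 on replicates 2 to 4, and was 0.084 without replicate 1. Rpa1 and Rpa2, which coat single-stranded DNA, differed by -0.0026 to 0.11 in 4 probe sets. Fen1, the flap endonuclease, was 0.25 higher in 1 probe set (SE 0.108, unadjusted p = 0.0556) and 0.10 in the other, and the ligase Lig1 differed by 0.072. Of the kinase that starts S phase, Cdk2 differed by -0.14 (SE 0.238) and its partner cyclin Ccne1 by -0.22 (SE 0.287).

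No mitotic member passed the threshold (smallest limma adjusted p 0.832, 0 of 25 at an unadjusted p under 0.05), and for 0 of 25 did the arrays separate. The 3 largest differences were those of Birc5, Kif11 and Cdc20. Birc5, or survivin, belongs to the chromosomal passenger complex and read 1.10, 0.24, 0.57 and 0.056 on IE-Cpr-null replicates 1 to 4, against -0.12, 0.033, 0.73 and -0.033 on WT replicates 1 to 4. The groups overlapped, and WT replicate 3 was higher than 3 of the 4 IE-Cpr-null arrays (difference 0.34, SE 0.269, adjusted p = 0.86). The difference was 0.14 without IE-Cpr-null replicate 1 and 0.53 without WT replicate 3. Kif11, the motor that pushes spindle poles apart, read 0.95, 0.10, 0.080 and 0.097 on IE-Cpr-null replicates 1 to 4, against 0.13, -0.15, 0.064 and -0.064 on WT replicates 1 to 4. Apart from replicate 1, the IE-Cpr-null arrays lay within the WT range (difference 0.31, SE 0.202, adjusted p = 0.851, and 0.099 without replicate 1). Its other probe sets differed by 0.046 and -0.090.

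Cdc20, which activates the anaphase-promoting complex, read 1.07, -0.22, 0.47 and -0.24 on IE-Cpr-null replicates 1 to 4, against -0.54, 0.020, 0.51 and -0.020 on WT replicates 1 to 4. High and low arrays occurred in both genotypes (difference 0.28, SE 0.339, adjusted p = 0.86). The difference was 0.012 without IE-Cpr-null replicate 1 and 0.10 without WT replicate 1, but 0.44 without IE-Cpr-null replicate 2 and 0.45 without IE-Cpr-null replicate 4 or WT replicate 3. Its other probe sets differed by -0.16 and 0.060, so that their signs were not the same. Ube2c, the ubiquitin-conjugating enzyme of that complex, read 1.44, -0.76, 0.12 and -0.43 on IE-Cpr-null replicates 1 to 4, against 0.034, -0.034, 0.57 and -0.26 on WT replicates 1 to 4. Its 2 highest arrays were IE-Cpr-null replicate 1 and WT replicate 3, 1 of each genotype, and its difference was 0.015 (SE 0.461).

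The cyclins and their kinase varied in the same way. Ccnb2, a B-type cyclin of mitotic entry, read 1.17, -1.18, 0.31 and -0.65 on IE-Cpr-null replicates 1 to 4, against -0.19, 0.00088, 0.88 and -0.00088 on WT replicates 1 to 4. Cdk1, the kinase that it activates, read 0.55, -0.29, 0.055 and -0.14 on IE-Cpr-null replicates 1 to 4, against -0.16, 0.017, 0.72 and -0.017 on WT replicates 1 to 4. In both, IE-Cpr-null replicate 2 was the lowest array, and the 2 highest were IE-Cpr-null replicate 1 and WT replicate 3. Their differences were -0.26 (SE 0.513) and -0.098 (SE 0.242). Ccna2 differed by -0.18 and 0.20 in its probe sets, with opposite signs.

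Top2a, the topoisomerase that untangles chromosomes, read 1.73, -0.93, 0.57 and -0.75 on IE-Cpr-null replicates 1 to 4, against -0.084, 0.084, 1.22 and -0.23 on WT replicates 1 to 4. Mki67 read 1.57, -1.24, 0.15 and -0.035 on IE-Cpr-null replicates 1 to 4, against -0.50, 0.30, 0.81 and -0.30 on WT replicates 1 to 4. Cenpa, the histone variant of the centromere, read 1.24, -1.11, -0.10 and -0.49 on IE-Cpr-null replicates 1 to 4, against -0.12, 0.12, 0.62 and -1.15 on WT replicates 1 to 4. On all 3 genes replicate 1 of IE-Cpr-null was the highest array, followed by WT replicate 3, and the differences were -0.091, 0.037 and 0.016 (SE 0.63, 0.578 and 0.556). These and the other mitotic genes given on every array, beyond Birc5, Kif11 and Cdc20, were chosen after their values were seen.

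The mitotic kinases and the spindle checkpoint gave no separation of the genotypes either. Plk1, which acts from mitotic entry to cytokinesis, differed by 0.21 (SE 0.18), Aurka of the spindle poles by -0.11 (SE 0.187), and Aurkb of the passenger complex by 0.017 and 0.13. The checkpoint genes Bub1, Bub1b and Ttk differed by 0.020 to 0.11 in 4 probe sets. Mad2l1, which restrains Cdc20 until chromosomes are attached, differed by -0.14 (SE 0.319) and was 0.78 on IE-Cpr-null replicate 1 and -0.72 to -0.27 on replicates 2 to 4. Kif20a, a kinesin of cytokinesis, differed by 0.040 (SE 0.0419).

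**Figure D3:**
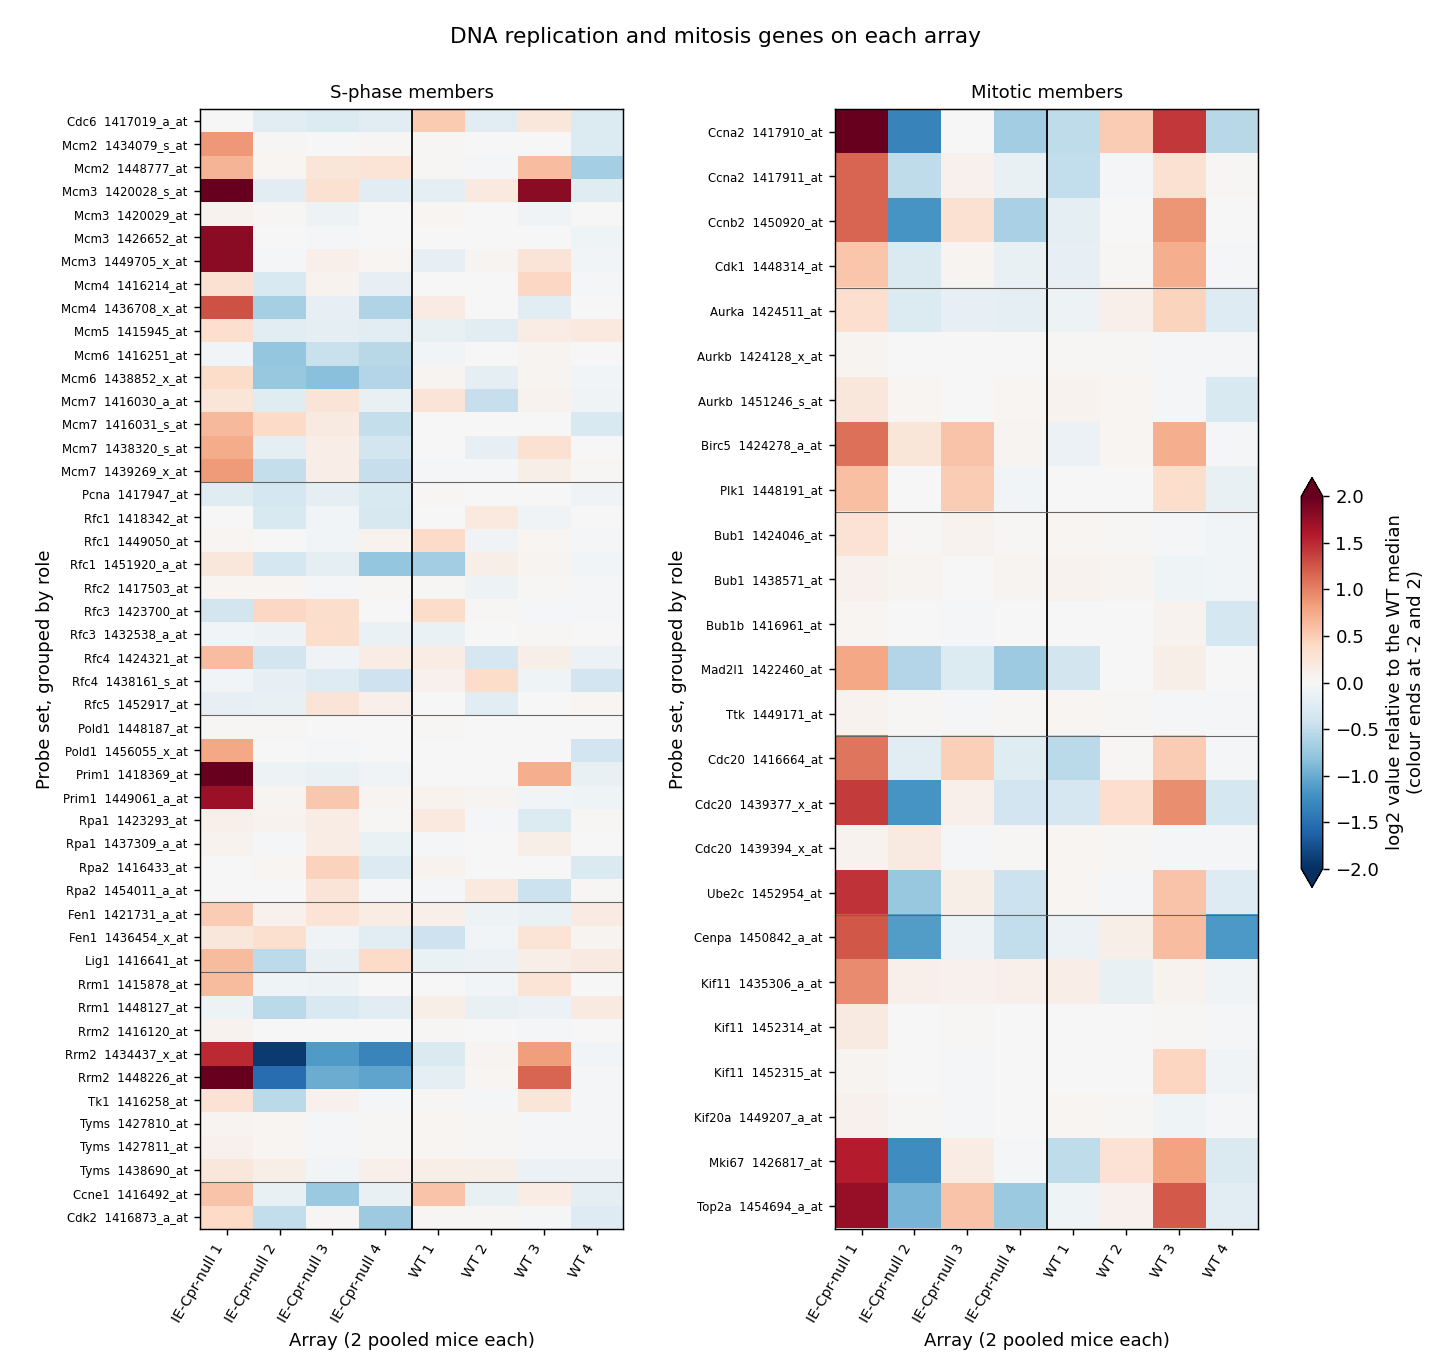
Log2 value relative to the WT median (colour, red above and blue below) of every member probe set (rows, grouped by role) on the 4 IE-Cpr-null and 4 WT arrays (columns). Red concentrates on IE-Cpr-null replicate 1 and, for mitotic genes, on WT replicate 3. IE-Cpr-null replicate 2 had the lowest mitotic mean (-0.36). It was the lowest array in 9 of 25 mitotic probe sets, 36% beside 15.6% of all probe sets.

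The spread among pools of 1 genotype was larger than the difference between the genotypes. The mean over mitotic probe sets was 0.74, -0.36, 0.097 and -0.19 on IE-Cpr-null replicates 1 to 4, against -0.12, 0.060, 0.39 and -0.17 on WT replicates 1 to 4. For S-phase probe sets it was 0.54, -0.21, -0.048 and -0.18 in IE-Cpr-null and 0.023, -0.026, 0.14 and -0.073 in WT. The mitotic array means averaged 0.073 ± 0.48 in IE-Cpr-null and 0.040 ± 0.26 in WT (SD, n = 4 each). Those of S phase averaged 0.024 ± 0.35 in IE-Cpr-null and 0.015 ± 0.089 in WT.

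IE-Cpr-null replicate 1 was the highest of the 8 arrays in 20 of 25 mitotic and 29 of 48 S-phase probe sets, 80% and 60.4%, beside 32.8% of all probe sets. It exceeded the mean of the other 3 IE-Cpr-null arrays in all 25 mitotic and in 43 of 48 S-phase probe sets, with medians of 0.68 and 0.44. Among WT arrays, replicate 3 was the highest in 17 of 25 mitotic and 18 of 48 S-phase probe sets, 68% and 37.5%, beside 20.9% of all probe sets. The mean over mitotic cyclins and Cdk1 was 1.27 on IE-Cpr-null replicate 1, and that over the clamp and its loader 0.0020. Means over the helicase and loading genes and over nucleotide supply lay between, at 0.85 and 0.53.

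By their means, crypt markers were high on the same arrays. Of the 14 crypt base and progenitor genes listed, 10 were measured by 17 probe sets, and their mean was 0.90, -0.48, -0.20 and -0.28 on IE-Cpr-null replicates 1 to 4, against -0.13, 0.11, 0.33 and -0.14 on WT replicates 1 to 4. IE-Cpr-null replicate 1 was highest in 15 of the 17, and WT replicate 3 was the highest WT array in 10. The exceptions on IE-Cpr-null replicate 1 were the probe sets of Axin2, at 0.11 and 0.073 there but 0.83 and 0.33 on replicate 2. Smoc2 read 3.44 and 1.32 on IE-Cpr-null replicate 1. The median over the 17 was 0.72 on that array and 0.11 on WT replicate 3. Of the 9 genes listed for Paneth cells, the non-dividing defence cells of the crypt base, 5 were measured by 7 probe sets, with means of 1.34, -0.87, -0.24 and -0.63 in IE-Cpr-null and -0.25, 0.070, 0.58 and -0.070 in WT. Replicate 1 was highest in 7 of the 7. Mmp7, the matrilysin that activates Paneth cell defensins, read 2.93, -1.54, -0.36 and -1.19 on IE-Cpr-null replicates 1 to 4, against -0.36, 0.12, 1.48 and -0.12 on WT replicates 1 to 4. None (0) of the crypt or Paneth probe sets had an unadjusted limma p under 0.05 between the genotypes. Genes of villus enterocytes, 12 of 14 measured by 19 probe sets, had means of -0.10 to 0.016 in IE-Cpr-null and -0.077 to 0.025 in WT, lowest on IE-Cpr-null replicate 1. The part of crypt content in the values of the replication and mitosis genes was not tested.

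Transcripts of other tissues also marked single pools. Stroma and muscle markers, 13 of 13 measured by 19 probe sets, had means of 3.06, -0.38, -0.29 and -0.45 in IE-Cpr-null and 0.10, 1.19, -0.19 and -0.16 in WT. The highest was again IE-Cpr-null replicate 1. WT replicate 2, the next in muscle transcripts, had mitotic and S-phase means of 0.060 and -0.026. Over the WT arrays these means ran from -0.17 to 0.39 and from -0.073 to 0.14. WT replicate 3, the WT array highest in mitotic genes, had a muscle mean of -0.19. Hepatocyte markers, 10 of 12 measured, had means of 4.80 and 2.95 on IE-Cpr-null replicates 2 and 3 and of -0.18 to 0.25 on the other 6 arrays. Pancreatic acinar markers, 11 of 14 measured, had means of -1.67, -4.54, -4.67 and -4.59 in IE-Cpr-null and -0.58, 1.54, -4.33 and 0.58 in WT. The part of these tissues in the values of the members was not tested.

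Lymphocytes also divide in the gut wall. Their markers, 10 of 12 measured by 12 probe sets, had means of 0.00017, 0.13, 0.53 and 0.11 in IE-Cpr-null and -0.059, 0.026, -0.031 and 0.040 in WT, highest on IE-Cpr-null replicate 3. B cell genes led that mean, with Ms4a1 at 3.29 and 0.22 in its probe sets, Cd79b at 1.11 and Cd79a at 0.79. The T cell genes Cd2, Cd3d, Cd3e, Cd3g, Cd4 and Cd8a read -0.041 to 0.36 there, and the median over the 12 was 0.20. Of the 6 germinal centre B cell genes, 2 were measured, and their mean was -0.40 to -0.10 in IE-Cpr-null and -0.19 to 0.23 in WT. Erythroid markers, 2 of 6 measured, had means of -0.027 to 0.11 in IE-Cpr-null and -0.061 to 0.060 in WT. Only the erythroid mean, of these 3 lists, was highest on IE-Cpr-null replicate 1.

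**Figure D4:**
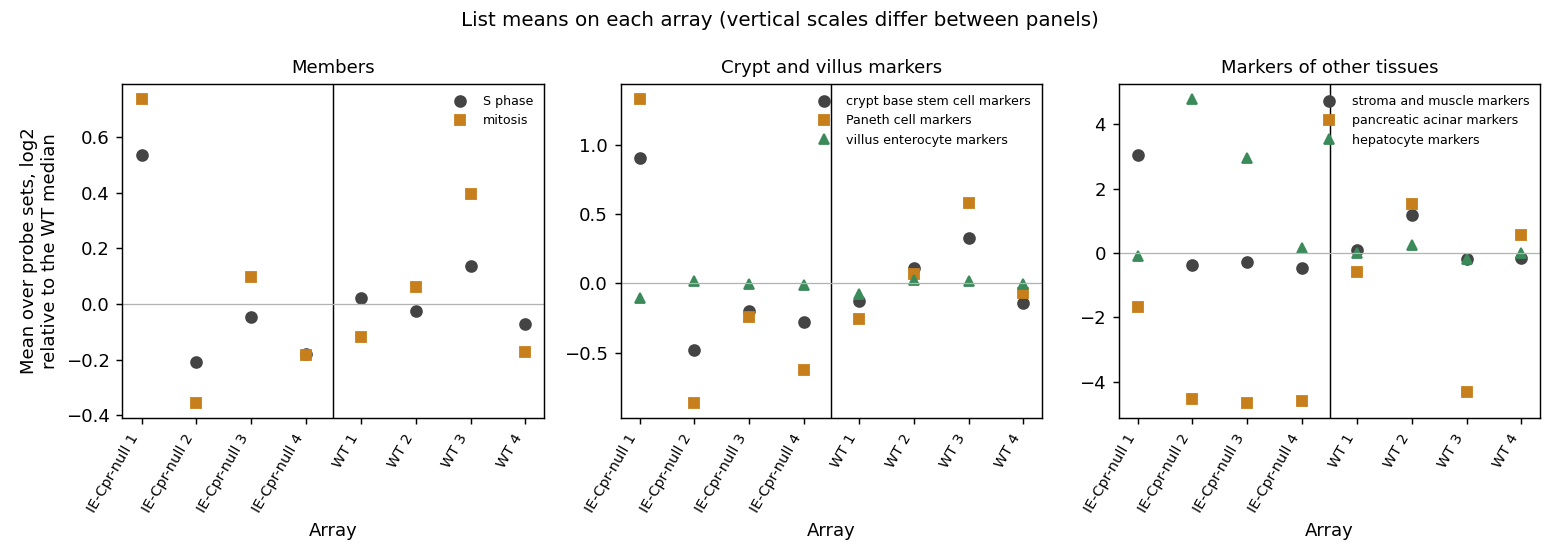
Mean over probe sets (log2 relative to the WT median, vertical axes on different scales) of the member classes, of crypt and villus markers and of markers of other tissues on each of the 4 IE-Cpr-null and 4 WT arrays. Mitotic, S-phase, crypt base and Paneth means are all highest on IE-Cpr-null replicate 1 and, within WT, on replicate 3, while the villus mean stays between -0.10 and 0.025.

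Without IE-Cpr-null replicate 1, more S-phase probe sets lay lower than higher. That array was the highest in 60.4% of S-phase and 80% of mitotic probe sets, so leaving it out lowers their differences. The S-phase median difference was then -0.038 with 26 of 48 probe sets lower. That of the mitotic genes was 0.0020 with 12 of 25 lower. Over all probe sets the median was 0.0081, with 43.7% lower. In limma 8 S-phase and 1 mitotic probe sets then had an unadjusted p under 0.05, all lower, and 0 passed the adjusted threshold. That is 16.7% of S-phase and 4% of mitotic probe sets, beside 5.93% of all probe sets lower. Of all probe sets, 0.0868% passed the adjusted threshold there. The 8 S-phase probe sets were 1 each of Pcna, Rfc1, Rrm1 and Mcm4, and 2 each of Mcm6 and Rrm2. For Rrm2 probe sets 1434437_x_at and 1448226_at the differences were -1.59 (SE 0.305) and -1.44 (SE 0.342), with adjusted p of 0.149 and 0.209, but 0.0012 in probe set 1416120_at. For Mcm6 they were -0.60 and -0.69 (adjusted p = 0.0752 and 0.0712). Pcna stood at -0.27 there, close to its value with all arrays, and the mitotic probe set was that of Mad2l1 (-0.46). The sign of the difference turned for 11 of the 73 member probe sets there, among them Mki67 (-0.45), Cenpa (-0.44), Ube2c (-0.43), Mcm3 1420028_s_at (-0.44) and Prim1 1418369_at (-0.24). The 3 arrays left in IE-Cpr-null all had low acinar transcripts, and 2 of them were rich in hepatocyte transcripts.

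Further genes of the same pathways gave no other call. Of 40 other S-phase genes listed, 32 were measured by 49 probe sets, with 30 higher, 19 lower and a median difference of 0.020. Of 40 other mitotic genes, 36 were measured by 60 probe sets, with 44 higher, 16 lower and a median of 0.027. None passed in limma over all probe sets, and at an unadjusted p under 0.05 there were 1 higher and 1 lower S-phase probe sets, 2.04% each way beside 2.92% and 4.47% of all probe sets, and 0 mitotic ones. The higher one was Ccne2, the second E-type cyclin, which read 0.59, 0.55, 0.95 and 0.997 on IE-Cpr-null replicates 1 to 4, against 0.47, -0.22, 0.12 and -0.12 on WT replicates 1 to 4. All 4 IE-Cpr-null arrays were above all 4 WT arrays, which held for 1 of the 49 probe sets beside 1.64% of all (difference 0.71, SE 0.174, adjusted p = 0.339). Orc5, a subunit of the origin recognition complex, differed by -0.19 (SE 0.0768, adjusted p = 0.646).

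Inhibitors of the cycle and p53 targets, 11 of 14 measured by 19 probe sets, had a median difference of -0.0042, with 7 higher and 12 lower. With no adjustment, 4 (21.1%) had a limma p under 0.05, all of them higher in IE-Cpr-null and 2 of them of Cdkn1a. Over all probe sets it was 2.92% higher and 4.47% lower, and none of the 19 passed the adjusted threshold. Cdkn1b, the Cdk inhibitor p27, read 0.67, 1.06, 1.72 and 1.13 on IE-Cpr-null replicates 1 to 4, against -1.32, 0.50, -0.27 and 0.27 on WT replicates 1 to 4 in probe set 1419497_at. The arrays of the genotypes did not overlap (difference 1.35, SE 0.41, adjusted p = 0.471), while its second probe set (1434045_at) differed by 0.21 (SE 0.1) with overlap. Cdkn1a, the inhibitor p21, differed by 0.24 without overlap and by 0.14 with overlap (adjusted p = 0.57 and 0.625). Gadd45a, a growth arrest gene, differed by 0.29 (SE 0.106, adjusted p = 0.57). IE-Cpr-null replicate 1 was the highest array in 0 of these 19 probe sets.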

How the data were processed

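Members, classes and lists were chosen with earlier results of these data known. Per the labels' protocols, enterocyte RNA was labelled with biotin and read on single-colour arrays. GCRMA is named in the submitters' processing notes, its version being not given in the sources used here. Deposited values are log2, and the median of the 4 WT arrays is 0 in every probe set (largest deviation 9.54e-07), so the authors' table is centred and holds no levels. A filter on dim probe sets was therefore replaced by one on SD. Groups came from the titles. Every probe set was tested with limma 3.58.1 in R 4.3.3 (lmFit, eBayes, two-sided, prior df 1.54), with Benjamini-Hochberg adjustment over 18443 probe sets. The fit was tested on simulated data. Intervals are limma's, at 95%. The labels give no batch. Nothing says that pools came from separate litters. Probe sets ending in _s_at or _x_at (16 of 73) can share probes with other transcripts.

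The rule for genes given on every array took members past the threshold, without overlap, with an unadjusted p under 0.05, or among the 3 largest differences of a class. Mcm3 1420028_s_at and the Paneth cell gene Mmp7 fell outside this rule and were picked as examples after their values were seen. Symbols are those of the platform annotation. Lists covered other S-phase and mitotic genes, cycle inhibitors, crypt base, Paneth, villus, lymphocyte, germinal centre, stroma and muscle, acinar, hepatocyte and erythroid genes. Alternatives were a replicate block, array weights, quantile normalization, centring of arrays, a robust prior, probe sets without shared probes or with high SD, means per gene, and arrays left out.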

Additional observations from a re-analysis of the deposited data

Results flagged for a closer look

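Among the members given on every array by the stated rule, 3 values in groups of 4 arrays stood far from the rest by Dixon's 95% criterion, which chance exceeds in about 1 of 20 groups. Rrm2 (1448226_at) was 2.04 on IE-Cpr-null replicate 1, where the others lay between -1.52 and -0.997. The same probe set was 1.16 on WT replicate 3, where the others lay between -0.19 and 0.042. Kif11 (1435306_a_at) was 0.95 on IE-Cpr-null replicate 1, where the others lay between 0.080 and 0.10. Over all 73 member probe sets, 13 IE-Cpr-null groups (17.8%) and 10 WT groups (13.7%) exceeded the criterion, beside 7.74% and 6.59% of all probe sets. Of the 13 in IE-Cpr-null, 12 were high values on replicate 1.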

How the results depend on the processing

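In 17 of 18 alternatives 0 member probe sets passed in limma. With array weights 2 of 73 did, Mcm6 (-0.56, adjusted p = 0.0212) and Pcna (-0.26, adjusted p = 0.0198), among 741 calls, 4.02% of all probe sets. That fit gave IE-Cpr-null replicate 4 a weight of 6.49 and replicate 1 one of 0.33. Over the alternatives the adjusted p of Pcna ran from 0.0198 to 0.97 and that of Mcm6 from 0.0212 to 0.97. Both stayed lower in IE-Cpr-null in every one. As their arrays did not overlap, leaving out or weighting arrays could not turn that sign, so it adds no support. The 4 calls over all probe sets became 1 with quantile normalization, 1 with the replicate block, 7 after keeping the more variable probe sets (SD over the median), and 1 to 16 with 1 array left out (16 without IE-Cpr-null replicate 1, 7 without IE-Cpr-null replicate 2, 1 without WT replicate 1, 2 or 4). The S-phase median was -0.13 without the muscle-rich arrays (IE-Cpr-null replicate 1 and WT replicate 2), -0.038 to 0.046 with 1 array left out, and -0.023 with array weights. The mitotic median ran from -0.00088 without the muscle-rich arrays to 0.16 without the hepatocyte-rich arrays (IE-Cpr-null replicates 2 and 3). Among the 9 probe sets recomputed under every alternative that kept them, signs turned for Rrm2 1448226_at without the hepatocyte-rich arrays (0.25) and for Cdc20 1416664_at with array weights (-0.15). Over all 73 member probe sets, signs turned for 14 with array weights and 11 without IE-Cpr-null replicate 1; the cause was not tested. Whether replicate numbers pair the arrays is not stated and could not be read from the values. Correlations of same-numbered deviations were -0.058, -0.041, 0.26 and 0.13. IE-Cpr-null replicates 3 and 4 correlated best with the WT array of the same number. IE-Cpr-null replicate 1 correlated best with WT replicate 2 (0.34), and replicate 2 with WT replicate 1 (0.0945). With the replicate block 0 members passed. Centred values hide signal over background, and 4 arrays per genotype limit the precision.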

Other observations

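Probe sets of 1 gene disagreed in how much they varied. Of the 73 member probe sets, 12 (16.4%, beside 32.7% of all probe sets) had a range under 0.25 over the 8 arrays, among them probe sets of Tyms, Ttk, Kif20a and Aurkb. Mcm3, Rrm2, Pold1, Cdc20, Kif11, Bub1 and Aurkb each had 1 such flat probe set beside at least 1 that varied more. In Rrm2 the flat probe set spanned 0.083 and the others 3.41 and 3.56. Whether the flat ones lie at background cannot be read from centred values. IE-Cpr-null replicate 1 was highest in 10 of these 12, and it also had the highest median over all probe sets (0.036). With flat probe sets left out, it was highest in 15 of 19 mitotic and 24 of 42 S-phase probe sets, 78.9% and 57.1%, beside 18.6% of all probe sets that were not flat.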
